A study of Mus musculus with 26 samples.

Results

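The unfolded protein response (UPR) of the endoplasmic reticulum (ER) was examined through 10 genes, *Hspa5*, *Hsp90b1*, *Hyou1*, *Pdia4*, *Dnajb9*, *Sdf2l1*, *Creld2*, *Edem1*, *Herpud1* and *Xbp1*. They were chosen by name, as ER chaperones and as targets of the transcription factors ATF6 and XBP1, and are 10 of the 55487 genes in the count table. All 10 were detected in every library, with at least 27 counts, and all 10 passed the filter on low counts in each comparison. The comparison asks whether the stress response of the knockout intestine also involves the genes that respond to unfolded proteins in the ER.

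Secreted and membrane proteins fold in the ER with the help of chaperones and of enzymes that form disulphide bonds, and misfolded proteins are exported and degraded, a process called ER-associated degradation (ERAD). When unfolded proteins accumulate, 3 sensors in the ER membrane respond. ATF6 is cut by the proteases encoded by *Mbtps1* and *Mbtps2* to release a transcription factor, IRE1 (encoded by *Ern1* and, in mucus-secreting epithelia, *Ern2*) splices the mRNA of *Xbp1*, and PERK (*Eif2ak3*) phosphorylates eIF2α, which lowers protein synthesis in general while it allows translation of ATF4. Other kinases also phosphorylate eIF2α in response to stress outside the ER, so that targets of ATF4 can rise without the ATF6 and XBP1 branches. The response is well known in cells that secrete much protein, such as Paneth cells, goblet cells and plasma cells.

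RNA was sequenced from the proximal small intestine (SI) of conditional knockout mice, homozygous for a floxed allele and carrying the Villin-creERT2 transgene (labelled tg and called knockout here), and of floxed littermates without the transgene, labelled wt and called control. All mice were on a C57BL/6N background, 8 to 12 weeks old, and had received 5 daily injections of tamoxifen, after the last of which they were killed at 3 days (7 mice per genotype) or 7 days (6 mice per genotype). The villin promoter restricts the recombinase to epithelial cells, whereas each sample was a whole piece of gut just after the stomach, with lamina propria and muscle. In such tissue, fewer cells of a type and less RNA per cell cannot be told apart. As the controls had no recombinase, an effect of creERT2 itself cannot be told apart from that of the gene deletion.

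The 26 libraries read the 3′ ends of transcripts and held between 3720168 and 6338016 counts each. Values are given as CPM, the counts of a gene scaled to a common library total, while fold changes also include the TMM scaling of edgeR, so that a ratio of CPM values need not equal the fold change. In 4 libraries (control replicates 5 and 7 and knockout replicate 1 of day 3, and control replicate 2 of day 7), *Muc6*, *Tff2* and *A4gnt*, which mark duodenal Brunner glands and mucous neck cells of the stomach, summed to between 8749 and 62143 CPM, against at most 301 CPM in the other libraries. Counts of the genes called are therefore also given without these 4 libraries.

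At 7 days after the last injection, 9 of the 10 UPR genes differed between the genotypes, and they moved in opposite directions. *Hspa5* and *Dnajb9* rose and *Hsp90b1*, *Hyou1*, *Pdia4*, *Sdf2l1*, *Creld2*, *Edem1* and *Herpud1* fell, while *Xbp1* did not pass the test (edgeR quasi-likelihood test, Benjamini-Hochberg adjusted p under 0.05). Of all 20259 genes tested at that time, 38.5% were called, 19.7% as higher and 18.8% as lower. The median log2 fold change was −0.58 over the 10 genes and −0.02 over all genes. The 9 genes were also called without the 4 gland-rich libraries, in the same directions.

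**Figure D1:**
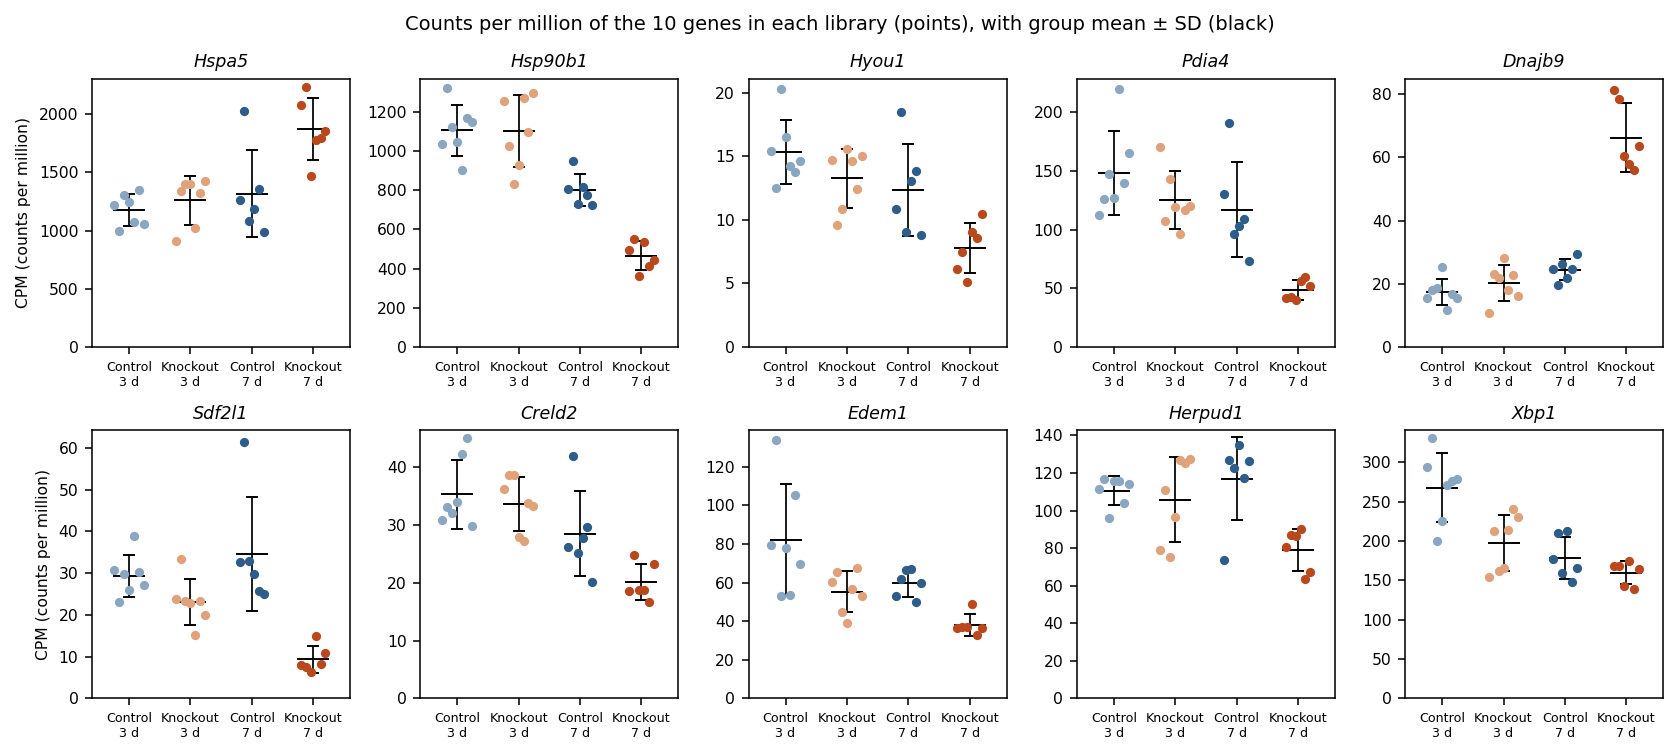
CPM (vertical axis, linear from 0) of the 10 UPR genes in each library, in 4 groups (control and knockout at 3 and 7 days; 7, 7, 6 and 6 mice), with the group mean ± SD as black bars. At 7 days the knockout mice lie above all control mice for *Dnajb9* and below all of them for *Hsp90b1*, *Pdia4*, *Sdf2l1* and *Edem1*, and at 3 days the genotypes overlap for every gene.

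Among the chaperones, *Hspa5* (chr2:34771970-34777547 in GRCm38, plus strand) encodes BiP, the HSP70 chaperone of the ER lumen that also holds the UPR sensors inactive. At 7 days it ranged from 1469 to 2236 CPM in knockout mice (median 1822) and from 988 to 2026 CPM in control mice (median 1225). The groups overlapped through control replicate 2, a gland-rich library, at 2026 CPM, whereas the other 5 control mice were at most at 1359 CPM and all 6 knockout mice exceeded that value. The rise was 1.45-fold (log2 fold change 0.53 ± 0.14 SE, adjusted p = 0.0065), and 0.66 on the log2 scale without control replicate 2.

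*Hsp90b1* (chr10:86690209-86705509, minus strand) encodes GRP94, the HSP90 chaperone of the ER, which works on clients after BiP. In contrast to *Hspa5*, its values at 7 days were between 363 and 549 CPM in knockout mice (median 469) and between 724 and 950 CPM in control mice (median 793), and the groups did not overlap. It fell 1.68-fold (log2 fold change −0.75 ± 0.11 SE, adjusted p = 2.03e-05). Its exons overlap those of 3 other genes, on which the counts amounted to between 4.36% and 10.2% of those of *Hsp90b1*, so that its values are less certain.

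Promoters of these 2 chaperones are shown because the genes moved apart although both carry the same ER stress response element. RefSeq promoters of GRCm38.p6 (250 bases before to 50 after the start of transcription) were available for 9 of the 10 genes, the exception being *Hyou1*. They were searched on both strands for ERSE (CCAAT and CCACG with 9 bases of any kind between them), the element bound by ATF6 with NF-Y, for ERSE-II (ATTGG and CCACG with 1 base between them), for the XBP1 core TGACGTG, and for the ATF4 element CARE (TGATGNAAN). No 2 of these matches share bases in the promoters of the 9 genes. Capitals mark the matches, and both sequences read 5′ to 3′ along the coding strand, *Hspa5* from chr2:34771840-34772139 (plus strand) and *Hsp90b1* from chr10:86705395-86705694 (minus strand):
Hspa5: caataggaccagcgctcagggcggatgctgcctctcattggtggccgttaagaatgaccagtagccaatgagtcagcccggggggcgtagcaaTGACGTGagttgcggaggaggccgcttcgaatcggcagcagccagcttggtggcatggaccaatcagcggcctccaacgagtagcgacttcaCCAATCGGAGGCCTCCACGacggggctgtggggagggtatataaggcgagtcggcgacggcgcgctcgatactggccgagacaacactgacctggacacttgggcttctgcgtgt
Hsp90b1: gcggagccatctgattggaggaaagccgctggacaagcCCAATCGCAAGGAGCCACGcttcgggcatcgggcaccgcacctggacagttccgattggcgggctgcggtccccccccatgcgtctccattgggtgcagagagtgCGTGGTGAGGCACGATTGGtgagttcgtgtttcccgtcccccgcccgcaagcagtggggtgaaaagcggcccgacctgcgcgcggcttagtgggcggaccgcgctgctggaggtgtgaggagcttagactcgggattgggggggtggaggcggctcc

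The *Hspa5* promoter held 1 ERSE, with its most upstream base at position −65 from the start of transcription, and 1 XBP1 core at −157. That of *Hsp90b1* held 2 ERSEs, at −212 on the coding strand and at −107 on the opposite strand. ERSE occurred in 39 of 32851 promoters of the mouse (0.119%), in 3 of the 9 promoters here, and the XBP1 core in 2.01% of all promoters and in 1 of the 9. The genes were chosen as targets of ATF6 and XBP1, so a share above that of all promoters can follow from that choice and is not a result of these data. A match of letters is a description and does not show that a factor was bound there.

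*Hyou1* (chr9:44379490-44392369, plus strand) encodes GRP170, a nucleotide exchange factor of BiP. At 7 days its counts were low, between 5.12 and 10.4 CPM in knockout mice (median 8.00) and between 8.84 and 18.5 CPM in control mice (median 12.0). The groups overlapped, with 4 of 6 knockout mice below the lowest control mouse. *Hyou1* fell 1.54-fold (log2 fold change −0.62 ± 0.19 SE, adjusted p = 0.015), but was no longer called when scores of pancreatic and stomach genes were added as covariates, at −0.45.

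*Pdia4* (chr6:47796141-47813430, minus strand) encodes ERp72, a protein disulphide isomerase. It ranged from 40.0 to 59.4 CPM in knockout mice (median 47.4) and from 73.1 to 191 CPM in control mice (median 106) at 7 days, without overlap. It fell 2.35-fold (log2 fold change −1.23 ± 0.17 SE, adjusted p = 1.32e-05). The highest control value was in the gland-rich replicate 2. At 3 days the highest values of control and knockout mice, 219 and 171 CPM, were also in gland-rich libraries. Over the alternatives the log2 fold change at 7 days ranged from −1.27 to −0.99, just under 2-fold at its smallest, and the call was kept.

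The 2 genes that changed most both encode partners of BiP. *Dnajb9* (chr12:44205559-44210326, minus strand) encodes ERdj4, an HSP40 co-chaperone that is a target of XBP1 and that brings BiP to IRE1 and to substrates of ERAD. At 7 days it was between 56.0 and 81.3 CPM in knockout mice (median 62.0) and between 19.8 and 29.3 CPM in control mice (median 24.7), so that each of the 6 knockout mice had more than every control mouse. It rose 2.75-fold (log2 fold change 1.46 ± 0.13 SE, adjusted p = 5.24e-08).

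*Sdf2l1* (chr16:17130138-17132383, minus strand) encodes an ER protein that acts with BiP and its HSP40 partners and keeps substrates soluble. It moved the other way, with values between 6.45 and 15.03 CPM in knockout mice (median 8.14) and between 24.9 and 61.5 CPM in control mice (median 31.2), again without overlap. It fell 3.596-fold (log2 fold change −1.85 ± 0.22 SE, adjusted p = 2.25e-06), and by 1.65 on the log2 scale without control replicate 2, in which it was highest.

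The promoters of this pair are given for comparison with those above, *Dnajb9* from chr12:44210019-44210318 and *Sdf2l1* from chr16:17132334-17132633, both on the minus strand and printed 5′ to 3′ along the coding strand. They have no capitals because none of the 4 elements was matched letter for letter, which says nothing of other or imperfect elements:
Dnajb9: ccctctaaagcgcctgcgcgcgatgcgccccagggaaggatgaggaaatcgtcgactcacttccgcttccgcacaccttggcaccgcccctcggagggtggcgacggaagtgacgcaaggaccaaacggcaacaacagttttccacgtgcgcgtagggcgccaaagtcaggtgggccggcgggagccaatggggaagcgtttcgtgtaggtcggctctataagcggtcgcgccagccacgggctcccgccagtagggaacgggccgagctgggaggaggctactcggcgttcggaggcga
Sdf2l1: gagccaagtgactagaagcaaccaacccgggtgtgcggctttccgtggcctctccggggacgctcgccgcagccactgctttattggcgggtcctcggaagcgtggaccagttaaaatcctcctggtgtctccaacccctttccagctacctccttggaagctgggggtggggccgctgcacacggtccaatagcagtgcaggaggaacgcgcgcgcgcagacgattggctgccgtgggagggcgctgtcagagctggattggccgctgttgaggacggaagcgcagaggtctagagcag

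*Creld2* (chr15:88819646-88826683, plus strand) encodes an ER-resident isomerase-like protein that is secreted under ER stress. At 7 days it ranged from 16.6 to 24.7 CPM in knockout mice (median 18.7) and from 20.04 to 41.9 CPM in control mice (median 26.97). The groups overlapped, with 4 of 6 knockout mice below the lowest control. The fall was the smallest of those called, at 1.38-fold (log2 fold change −0.47 ± 0.15 SE, adjusted p = 0.0176). The highest control value, 41.9 CPM, was in the gland-rich replicate 2. Over the alternatives the log2 fold change of *Creld2* ranged from −0.50 to −0.36, and it stayed called. Its promoter held an ERSE at −126 on the opposite strand, shown for comparison with those of the chaperones in the reading direction of the element:
Creld2 ERSE: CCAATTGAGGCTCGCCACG

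2 genes of ERAD fell as well. *Edem1* (chr6:108828641-108859356, plus strand) encodes a lectin that trims mannose from misfolded glycoproteins and directs them to degradation. It was between 32.6 and 48.9 CPM in knockout mice (median 36.7) and between 50.1 and 67.1 CPM in control mice (median 60.7) at 7 days, and the highest knockout mouse stayed just below the lowest control mouse. *Edem1* fell 1.54-fold (log2 fold change −0.62 ± 0.11 SE, adjusted p = 0.000146).

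*Herpud1* (chr8:94386438-94395377, plus strand) encodes a membrane protein that assembles the HRD1 ubiquitin ligase of ERAD and is induced by the ATF6, XBP1 and ATF4 branches. At 7 days it ranged from 63.5 to 90.2 CPM in knockout mice (median 83.4) and from 73.6 to 135 CPM in control mice (median 125). Control replicate 1, at 73.6 CPM, lay among the knockout mice, and the other 5 control mice, at 117 CPM or more, lay above all of them. The fall was 1.45-fold (log2 fold change −0.53 ± 0.14 SE, adjusted p = 0.00403). Its promoter, the only one of the 9 with ERSE-II (0.0365% of all promoters) or with CARE (3.95%), is represented by these matches, at −52 on the coding strand and at −113 on the opposite strand, in the reading direction of each element:
Herpud1 ERSE-II: ATTGGGCCACG
Herpud1 CARE: TGATGCAAC

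*Xbp1* (chr11:5520659-5525893, plus strand) encodes the transcription factor of the IRE1 branch, and its spliced and unspliced mRNAs cannot be separated by reads at the 3′ end. At 7 days it was between 139 and 174 CPM in knockout mice (median 166) and between 148 and 213 CPM in control mice (median 172). The log2 fold change of −0.13 ± 0.10 SE did not pass the test (adjusted p = 0.333), and 2 standard errors on either side span −0.33 to 0.07, so that a change of the size seen in *Hspa5* lies outside this range.

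**Figure D2:**
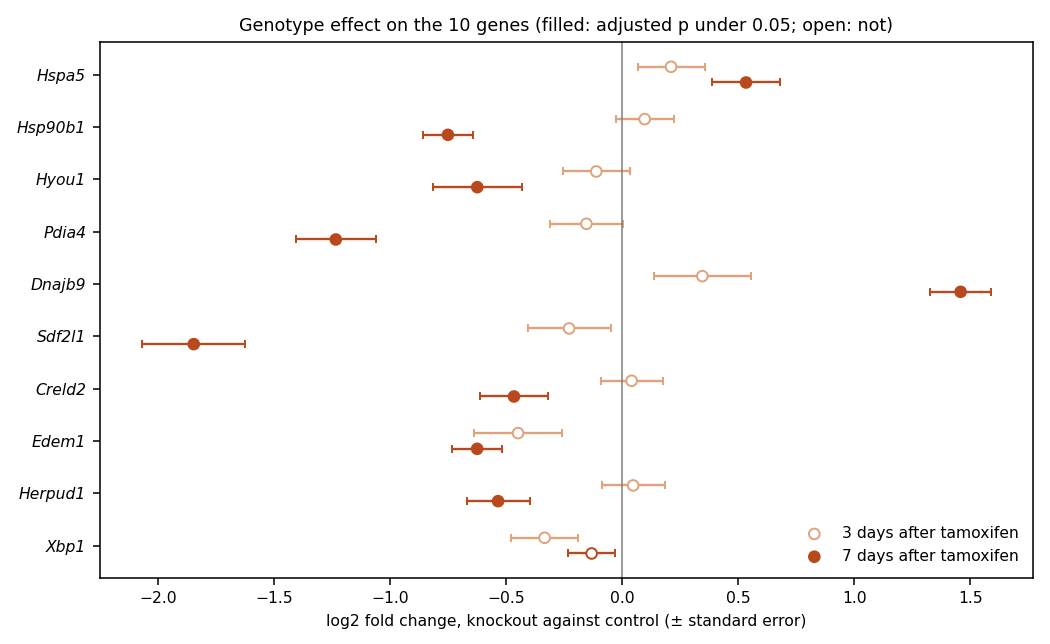
Log2 fold change of knockout against control mice (horizontal axis, ± standard error of the edgeR fit) for the 10 UPR genes at 3 days (light) and 7 days (dark), with filled points for adjusted p under 0.05. Every point at 3 days is open, and at 7 days 2 filled points lie to the right of 0 and 7 to its left.

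Of the 10 genes, 5 had groups that did not overlap at 7 days (1 higher and 4 lower in knockout mice), against 22.6% of all genes tested. A change of at least 2-fold was seen in 3, *Dnajb9*, *Sdf2l1* and *Pdia4*, against 16% of all genes. The directions of the 9 called genes and their calls were the same with DESeq2, with other scalings, filters and designs, and with each library left out in turn, except for the call of *Hyou1* given above.

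The pairs that moved apart did so within single libraries, where scaling and library size cancel. These ratios of counts were chosen after the values had been seen and are given without a test. The ratio of *Hspa5* to *Hsp90b1* was 4.02 ± 0.363 (SD, n = 6) in knockout mice at 7 days and 1.63 ± 0.280 (n = 6) in control mice, and 1.19 ± 0.351 and 1.08 ± 0.172 (n = 7 each) at 3 days. The lowest knockout value at 7 days, 3.31, exceeded the highest of any other group, 2.13. The ratio of *Dnajb9* to *Sdf2l1* ranged from 3.86 to 10.5 in knockout mice at 7 days and from 0.297 to 1.24 in all other mice. That of *Hspa5* to *Pdia4* was between 30.2 and 52.3 and at most 13.5 elsewhere. That of *Xbp1* to *Edem1* was 4.24 ± 0.422 in knockout and 3.01 ± 0.382 in control mice at 7 days (n = 6 each). The lowest knockout value, 3.57, exceeded the highest control value of that day, 3.41. However, the values at 3 days reached 5.04.

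**Figure D3:**
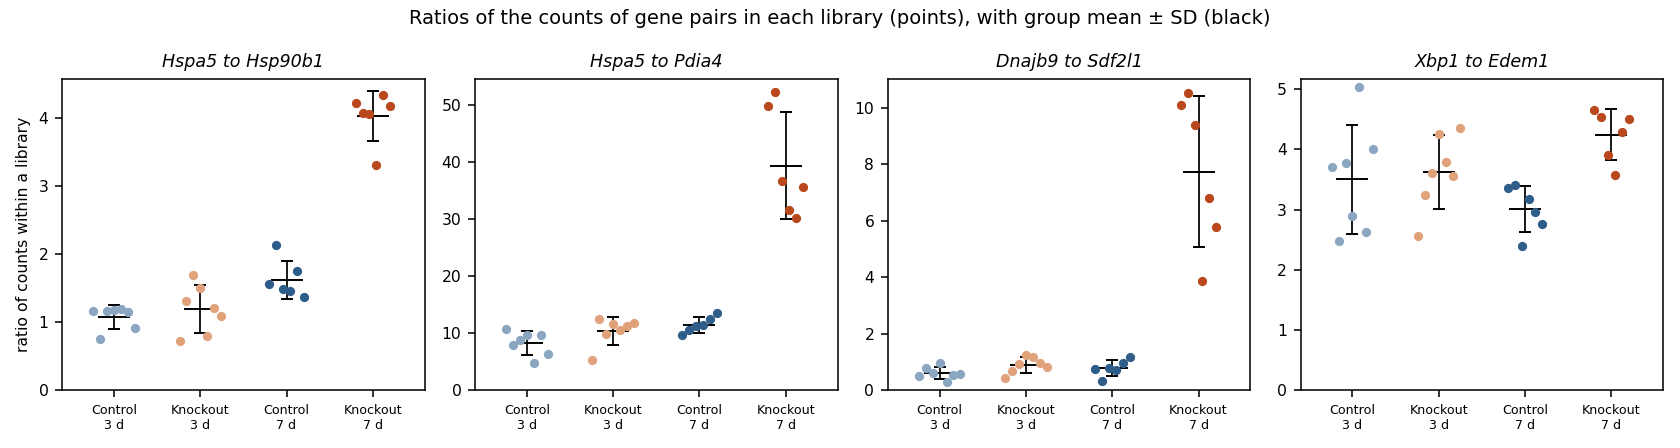
Ratio of the counts of gene pairs within each library (vertical axis, linear from 0) in the 4 groups, with mean ± SD in black. For *Hspa5* to *Hsp90b1*, *Hspa5* to *Pdia4* and *Dnajb9* to *Sdf2l1*, the 6 knockout mice of day 7 lie above the mice of the other groups, which is not so for *Xbp1* to *Edem1*.

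At 3 days after the last injection, edgeR called 0 of the 10 genes, against 1.43% of 20760 genes (1.11% higher and 0.323% lower), with 2 of the 10 at an unadjusted p under 0.05, and DESeq2 likewise called 0, with 2 at that level. The median log2 fold change was −0.04 over the 10 genes and −0.03 over all genes. The genotypes overlapped for each gene, as they did for all but 0.848% of the genes tested. The 2 genes with a low unadjusted p were *Edem1* and *Xbp1*, both lower in knockout mice. *Edem1* was between 38.9 and 67.5 CPM in knockout mice (median 56.4) and between 53.0 and 134 CPM in control mice (median 78.1), with a log2 fold change of −0.45 ± 0.19 SE (adjusted p = 0.305). *Xbp1* was between 154 and 240 CPM in knockout mice (median 213) and between 200 and 331 CPM in control mice (median 276), with −0.33 ± 0.14 SE (adjusted p = 0.313).

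The genes that rose later had small positive differences at this time that did not pass the test. *Hspa5* ranged from 909 to 1425 CPM in knockout mice (median 1342) and from 993 to 1350 CPM in control mice (median 1216), and the interval of its log2 fold change (2 standard errors on either side) was −0.08 to 0.50. *Dnajb9* ranged from 10.7 to 28.3 CPM (median 21.7) and from 11.6 to 25.2 CPM (median 16.8), with an interval of −0.07 to 0.77. Of the genes that fell later, *Sdf2l1* was between 15.1 and 33.5 CPM in knockout and 23.1 and 39.0 CPM in control mice, with −0.23 ± 0.18 SE.

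For the other chaperones, the log2 fold changes at 3 days were 0.10 ± 0.13 SE for *Hsp90b1*, which was between 831 and 1297 CPM in knockout and 901 and 1320 CPM in control mice, and −0.15 ± 0.16 SE for *Pdia4*. The latter turned slightly positive, at 0.04, with the pancreatic and stomach scores as covariates. For *Hyou1* it was −0.11 ± 0.14 SE. *Herpud1* and *Creld2*, at 0.05 ± 0.14 SE and 0.04 ± 0.13 SE, were nearest to 0, and with library totals in place of TMM both, and *Hsp90b1*, turned slightly negative. The 3 intervals of *Hsp90b1*, *Herpud1* and *Creld2* reach at most 0.35 in size, so differences of the size seen at 7 days in *Hsp90b1* lie outside them.

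The change of the genotype effect between the days was tested with an interaction term across the 26 libraries. It was called for 5 of the 10 genes, against 18.4% of 19604 genes (8.64% higher and 9.74% lower). The effect on *Dnajb9* was higher at 7 days than at 3 days by 1.14 ± 0.26 SE on the log2 scale (adjusted p = 0.00205). It was lower at 7 days for *Sdf2l1*, with −1.60 ± 0.30 SE (adjusted p = 0.000274), for *Pdia4*, with −1.06 ± 0.25 SE (adjusted p = 0.00274), and for *Hsp90b1*, with −0.83 ± 0.16 SE (adjusted p = 0.000415).

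The fifth gene, *Herpud1*, passed narrowly with −0.56 ± 0.20 SE (adjusted p = 0.0471), and its call was lost under 3 of 7 alternatives and without 17 of the 26 libraries in turn. For *Hspa5*, the effect at 7 days exceeded that at 3 days by 0.34 ± 0.21 SE, which did not pass (adjusted p = 0.293), so the rise at 7 days is not shown to differ from the value at 3 days. The same holds for *Creld2* (−0.49 ± 0.21 SE, adjusted p = 0.103), *Hyou1* (−0.50 ± 0.24 SE, adjusted p = 0.155), *Edem1* (−0.16 ± 0.23 SE, adjusted p = 0.712) and *Xbp1* (0.22 ± 0.18 SE, adjusted p = 0.435). *Creld2* was called without control replicate 6 of day 7, at −0.59.

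The control mice also differed between the days. In these mice, 4 of the 10 genes were higher at 7 than at 3 days, against 19.7% of 20646 genes called higher and 36% called in either direction. These were *Dnajb9* (log2 fold change 0.86 ± 0.15 SE, adjusted p = 0.000296), *Sdf2l1* (0.58 ± 0.19 SE, adjusted p = 0.0262), *Hspa5* (0.52 ± 0.15 SE, adjusted p = 0.0139) and *Herpud1* (0.44 ± 0.13 SE, adjusted p = 0.0108). With library totals in place of TMM, which lowers the median of all genes from −0.06 to −0.41, the called genes were *Dnajb9* as higher and *Hsp90b1* and *Xbp1* as lower. Without the gland-rich libraries, 3 genes were called, and *Hspa5*, at 0.32, was not. No batch is named in the sources used here, and a batch of dissection or sequencing that coincided with the time point could not be separated from it, so the 2 cannot be told apart.

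The marker genes of cell types put numbers on this difference. In control mice, 10 of 10 enterocyte markers were higher at 7 than at 3 days, with a median log2 fold change of 2.14, whereas 6 of 7 plasma cell markers and 6 of 6 smooth muscle markers were lower. Of all genes, 19.7% were called as higher and 16.3% as lower in this comparison. The part of such differences in the values of the UPR genes was not tested.

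The other genes of the pathway were read in lists defined by function. The median of all genes was close to 0 at both days, as given above. Of all genes tested, 1.11% were called as higher and 0.323% as lower at 3 days, and 19.7% and 18.8% at 7 days. The sensors and the factors that act with them numbered 12, all tested. At 3 days 0 of 12 were called (1 at an unadjusted p under 0.05, and 0 with DESeq2), and at 7 days 3 were higher and 4 lower, with a median of −0.20.

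*Atf6* rose 1.67-fold at 7 days (log2 fold change 0.74 ± 0.11 SE, adjusted p = 2.77e-05), from a median of 41.4 CPM in control to 70.8 CPM in knockout mice. *Mbtps2*, which encodes one of the proteases that activate ATF6, rose 2.11-fold (adjusted p = 4.63e-07). *Ern1*, which encodes IRE1α, was between 29.0 and 38.7 CPM in knockout and between 11.7 and 16.1 CPM in control mice, a rise of 2.43-fold without overlap (adjusted p = 1.03e-07). Of other components in the list, *Creb3* fell (log2 fold change −0.98, adjusted p = 1.22e-05). *Mbtps1* (−0.18) and *Atf6b* (0.23) were not called. Of the 10 target genes, 7 fell and 2, *Hspa5* and *Dnajb9*, rose, against 18.8% and 19.7% of all genes. Transcript levels do not measure the cutting of ATF6 or the splicing of *Xbp1*, so the activity of these branches was not tested.

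*Ern2*, the IRE1 gene of mucus-secreting epithelium, fell 1.997-fold at 7 days (adjusted p = 0.000606), with 10.2 to 18.4 CPM in knockout and 21.4 to 52.8 CPM in control mice. *Creb3l4* and *Creb3l2*, which encode ER-anchored transcription factors related to ATF6, fell by 1.92 and 1.56 on the log2 scale (adjusted p = 0.00333 and 1.71e-06). Without control replicate 2 the value of *Creb3l4* was −1.15 (adjusted p = 0.00189), and in a single fit of all 26 libraries neither *Ern2* nor *Creb3l4* was called (adjusted p = 0.146 and 0.0954). Both *Ern2* and *Creb3l4* went with the gland markers: *Ern2* was between 36.4 and 186 CPM in the 4 gland-rich libraries and at most 26 CPM in the other 22, and *Creb3l4* was between 14.9 and 107 CPM and at most 7.97 CPM. *Eif2ak3*, which encodes PERK, had a log2 fold change of −0.21 ± 0.18 SE at 7 days (adjusted p = 0.374) and of −0.54 ± 0.23 SE at 3 days (adjusted p = 0.297), neither of which passed the test.

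Further ER folding factors that were called mostly fell. Of 24 such factors, 13 were lower, 1 was higher and 10 were not called at 7 days, with a median of −0.31. The shares of all genes were 18.8% lower and 19.7% higher. *Pdia5*, *Txndc5* and *P4hb*, all of the protein disulphide isomerase family, fell by 1.08, 0.95 and 0.89 on the log2 scale (adjusted p = 0.0083, 0.000106 and 6.12e-05). In control mice of day 7, *Pdia5* was highest in the gland-rich replicate 2, at 25.8 CPM, against a group median of 9.72 CPM. Gland-rich libraries also held its highest values in control and knockout mice of day 3 (62.6 and 32.0 CPM). The 1 factor called as higher was *Ero1l*, which encodes the ER oxidase ERO1α and is a known target of CHOP. It rose 10.98-fold at 7 days, from a median of 14.97 to 163 CPM (adjusted p = 7.35e-13), and was the 1 gene of the list called at 3 days, at 3.61-fold (adjusted p = 0.00141).

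Of 24 further ERAD factors, 8 were higher and 6 lower at 7 days, against 19.7% and 18.8% of all genes. The median was −0.09, and this list had no common direction. *Derl3* and *Os9*, which act in the retrotranslocation and recognition of misfolded proteins, fell, with log2 fold changes of −1.33 and −1.002 (adjusted p = 0.000919 and 1.08e-06), as did the ubiquitin ligase gene *Rnf5*, with −0.80 (adjusted p = 0.00578). *Ube2g2*, a ubiquitin-conjugating enzyme of ERAD, rose 1.80-fold (adjusted p = 2.97e-05).

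Of 24 genes of translocation into the ER and of N-glycosylation, 11 were lower and 1 higher at 7 days, with a median of −0.23. The shares of all genes were 18.8% and 19.7%. *Dad1* and *Ostc* of the oligosaccharyltransferase, *Spcs2* of the signal peptidase and *Sec61b* of the translocon fell by between 0.57 and 0.80 on the log2 scale. At 3 days, 0 of the 24 ERAD and 0 of the 24 translocation genes were called by edgeR (5 and 1 at an unadjusted p under 0.05), and 1 of each by DESeq2. At that time edgeR called 1.43% of all genes.

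The ATF4 branch had higher medians than all these lists at both days. *Ero1l* of the folding factors was likewise called at 3 days. The genes of the ATF4 branch were chosen with earlier results of these data known, so this contrast is a description and not a test. Of its 25 genes 24 could be tested, of which 18 were higher at 3 days (1.11% of all genes were), with a median log2 fold change of 1.88. At 7 days 24 were higher (19.7% of all genes were), with a median of 2.82. *Atf4* itself rose 2.71-fold at 3 days (adjusted p = 5.87e-05) and 3.65-fold at 7 days (adjusted p = 1.47e-10). *Ddit3*, which encodes CHOP, was between 22.9 and 106 CPM in knockout and between 12.5 and 23.3 CPM in control mice at 3 days, a rise of 3.68-fold (adjusted p = 0.000919). At 7 days it reached between 199 and 333 CPM, against 15.1 to 21.3 CPM, a rise of 16.7-fold (adjusted p = 6.32e-13). The table holds another, overlapping entry of the same symbol, and the values are those of the longer entry.

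*Slc7a11*, the cystine transporter, was between 526.1 and 770 CPM in knockout mice and at most at 1.71 CPM in control mice at 7 days (adjusted p = 3.31e-13). *Gdf15*, *Chac1* and *Trib3*, which encode a secreted stress cytokine, a glutathione-degrading enzyme and a pseudokinase, rose 52.2-fold, 31.4-fold and 25.9-fold at 7 days, and all 4 genes were already called at 3 days. In control mice of day 7, *Chac1* had 1 to 9 counts and *Gdf15* 8 to 19, so the size of their folds is uncertain. The 10 UPR genes had 27 or more counts in every library. Among them, the largest rise was the 2.75-fold of *Dnajb9* at 7 days. At 3 days 0 of the 10 were called, which is near the share of all genes called then, 1.43%. The eIF2α kinase genes, of which 4 were tested, had log2 fold changes between −0.26 and 0.34 at 7 days, 3 of them at an unadjusted p under 0.05. *Eif2ak2* was called as lower (−0.26 ± 0.10 SE, adjusted p = 0.0493), a call lost under 3 of 9 alternatives and without 6 of the 12 libraries in turn. With DESeq2, library totals, the stricter count filter or the gland-rich libraries left out, 2 of the 4 were called as lower. In the main test 18.8% of all genes were.

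**Figure D4:**
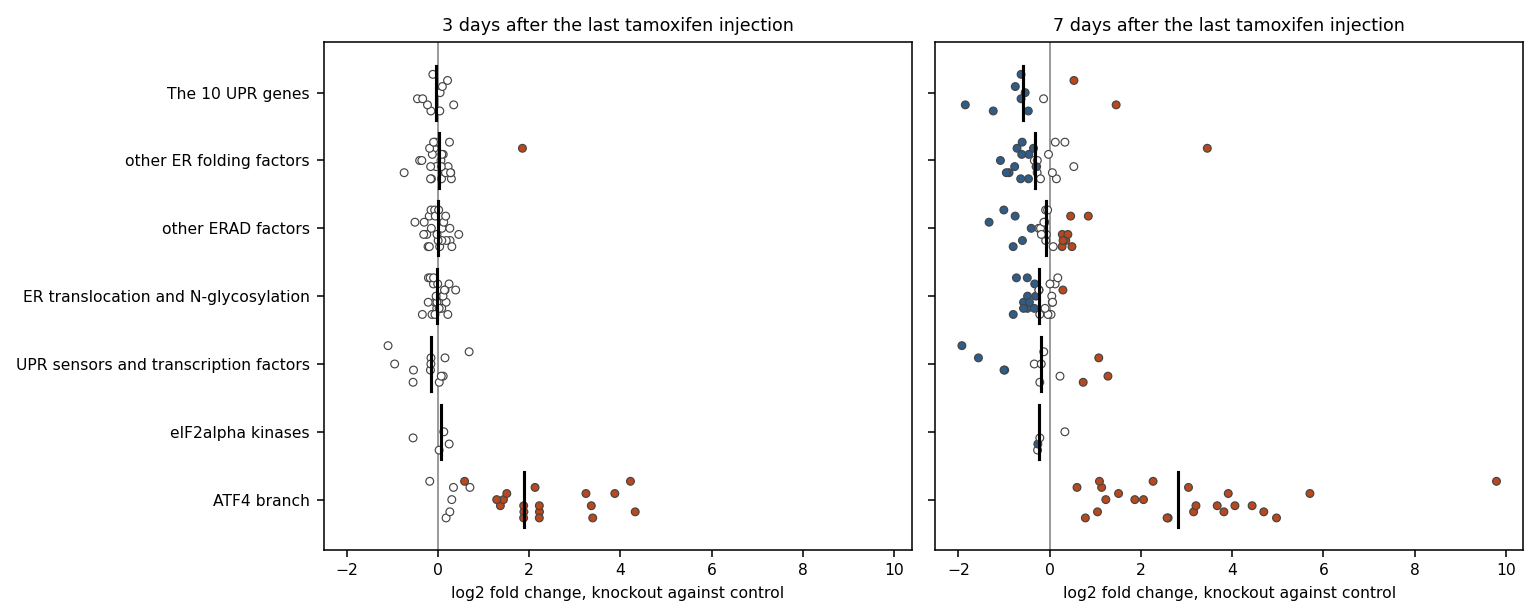
Log2 fold change of knockout against control mice (horizontal axis) at 3 days (left) and 7 days (right) for each tested gene of 7 lists, with filled points for genes called as higher (red) or lower (blue), open points for those not called and black bars for the median of the list. The medians of the ATF4 branch are 1.88 and 2.82, with all of its genes but *Nupr1* at 3 days (−0.18) to the right of 0. The medians of the 10 UPR genes and the ER lists lie between −0.15 and 0.01 at 3 days and below 0 at 7 days. Single genes of the ER lists lie further out at 3 days, such as *Ero1l* at 1.85, called as higher, and *Creb3l4* at −1.09, not called.

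Markers of several cell types also differed between the genotypes at 7 days. Of all genes tested then, 18.8% were called as lower and 19.7% as higher. The summed level of 10 enterocyte markers was between 3615 and 5289 CPM in knockout and between 16110 and 31422 CPM in control mice, and 9 of 10 were called as lower. The 7 plasma cell markers, of cells rich in ER, summed to between 4474 and 8308 CPM in knockout and between 11794 and 24667 CPM in control mice, and 6 of 7 were lower. The other, *Ighm*, was not called and went the other way, with medians of 20.9 CPM in knockout and 11.4 CPM in control mice. Of 5 T lymphocyte markers 3 were lower, of 8 goblet cell markers 2 were lower and 1 higher, and of 7 Paneth cell markers 2 had an unadjusted p under 0.05 without passing the adjusted test. Every marker of these 5 lists was above 0 in at least 1 library of each group. Of 6 enteroendocrine markers 2 were lower. *Muc6*, *Tff2* and *A4gnt*, the 3 gland markers, were lower, with sums of at most 80.8 CPM in knockout mice and between 2.50 and 27692 CPM in control mice, but the sums of the 5 control mice other than replicate 2, at most 48.1 CPM, overlapped those of the knockout mice. Pancreatic acinar markers summed to between 32.7 and 23873 CPM in knockout and between 71.9 and 5364 CPM in control mice, stomach markers to at most 4.50 CPM and between 5.64 and 12023 CPM, and smooth muscle markers to between 663 and 968 CPM and between 579 and 1037 CPM. The part of these cells in the results of the UPR genes was not tested, and the 9 UPR genes called at 7 days were also called without that library.

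Some libraries ranked highest or lowest of their group for several of the 10 genes. At 7 days, control replicate 2 was the highest of its group for 6 genes, *Hspa5*, *Hsp90b1*, *Sdf2l1*, *Creld2*, *Pdia4* and *Hyou1*, and the lowest for *Dnajb9*, and control replicate 6 was the lowest for 6 genes and the highest for *Dnajb9*. Among the knockout mice of day 7, replicate 4 was the highest for 4 genes, *Xbp1*, *Herpud1*, *Sdf2l1* and *Edem1*. Knockout replicates 3 and 5 were each the lowest for 5 genes. Across all 26 libraries, with group means taken out, the genes outside the 10 whose log2 CPM was most like the mean pattern of the 10 were *Pdia6* (Pearson's r = 0.784), *Nudt14* (0.688), *Pdia3* (0.671), *Manf* (0.671) and *Hspa13* (0.665), of which all but *Nudt14* are ER folding factors. As measured, with the group differences left in, they were *Pdia3* (0.858), *Lyn* (0.827), *Manf* (0.811), *Gse1* (0.807) and *Rnpep* (0.804). The libraries share the gland and day differences described above, so these values are a description over 26 points.

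Within the 10, *Sdf2l1* (0.594), *Hspa5* (0.581) and *Creld2* (0.570) followed the mean of the other 9 genes most closely with group means taken out, and *Dnajb9* (−0.11) and *Edem1* (0.050) least. As measured, the correlation was −0.71 for *Dnajb9* and −0.35 for *Hspa5*, the 2 genes that rose, and between 0.36 and 0.73 for the other 8.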

How the data were processed

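RNA-seq was analysed in 26 libraries of proximal SI, 1 per mouse, grouped by genotype and day as per the labels. The authors trimmed reads with Cutadapt 2.10 (minimum length 35), aligned them with Subread to GRCm38 and assigned primary alignments to the exons of Ensembl release 100 with featureCounts 2.0.1, dividing a read on several genes into fractions. No strand option is stated, so reads of overlapping genes on opposite strands may be shared. They deposited these estimated counts unnormalised. Whole numbers made up 95.0% of the values, and all were rounded before fitting, although the design had been written for whole counts. The 92 spike-in entries had 0 counts. The deposited CPM equal the counts scaled to the library total and served only to check that scale.

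Genes at 0 in most mice of either group were left out. Genotypes were compared per day in edgeR 4.0.16 by its quasi-likelihood test (R 4.3.3, TMM, Benjamini-Hochberg adjusted p under 0.05), the days through an interaction term over all libraries, and the control mice between days. Standard errors were obtained as the log2 fold change over the square root of F. P-values measure the spread between mice. Scores of gene lists used as covariates are mean log2 CPM with a prior count of 2. Alternatives were DESeq2 1.42.0, its size factors, library totals, other filters, a replicate block, all libraries in 1 fit, pancreatic and stomach scores as covariates, a 2-fold threshold, each library left out, and, added after the marker values were seen, the gland-rich libraries left out (over 1000 CPM of 3 gland markers). The fits were tested on simulated data. 

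The members and all gene lists were chosen with earlier results of these data known. Beyond the 10 genes, the sensors *Atf6*, *Ern1*, *Ern2* and *Eif2ak3*, and *Atf4* and *Ddit3* are named, with up to 4 genes per list of the largest called change at 7 days (mean of at least 20 counts) and the 5 genes most alike in pattern on each scale, under the same minimum. Coordinates and overlaps came from GENCODE M21 and promoters from RefSeq, both of GRCm38. The targeted gene is not reported here.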

Additional observations from a re-analysis of the deposited data

Results flagged for a closer look

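In 4 of the 40 sets of values (10 genes in 4 groups) 1 mouse lay far from the others of its group by Dixon's criterion, where chance alone flags about 1 in 20 sets. *Hspa5* was 2026 CPM in control replicate 2 of day 7, against 1359 CPM in the next highest mouse. *Sdf2l1* was 61.5 CPM in the same library, against 32.8 CPM, and this library also had 27692 CPM of gland markers. *Herpud1* was 73.6 CPM in control replicate 1 of day 7, against 117 CPM in the next lowest mouse. *Edem1* was 48.9 CPM in knockout replicate 4 of day 7, against 36.9 CPM in the next highest mouse. This library also had 23873 CPM of pancreatic acinar markers, against at most 1628 CPM in the other knockout mice of day 7.

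The genotype effect differed between 7 and 3 days, by the interaction term, for *Hsp90b1* (−0.83 on the log2 scale), *Dnajb9* (1.14), *Herpud1* (−0.56), *Sdf2l1* (−1.60) and *Pdia4* (−1.06). In each of these genes but *Hsp90b1* and *Pdia4*, the control mice were also called as higher at 7 than at 3 days.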

How the results depend on the processing

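The 9 calls at 7 days, and the absence of a call at 3 days, held under each alternative except that *Hyou1* was lost with the pancreatic and stomach scores as covariates (8 called), and that 3 genes remained above a 2-fold change. With each library left out in turn, 0 genes were called at 3 days and 9 at 7 days. For the change between the days, where 5 genes were called, the alternatives, and the fits with a library left out, called 4 or 5. In control mice, where 4 were called, the alternatives called between 3 and 5. Library totals in place of TMM made 1 of 3 called genes higher, and *Sdf2l1* was lost without control replicate 2 or 4 of day 3, or 2 of day 7.

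Over all genes, DESeq2 called 786 genes at 3 days, a single fit of all 26 libraries 810, the 2-fold threshold 129 and the replicate block 99, against 297. The share of calls that were higher was 52.1% with library totals at 3 days, against 77.4%, and 21.1% against 54.8% between the control mice of the 2 days. Same-numbered mice of the genotypes did not deviate together (correlations from −0.262 to 0.288 over 13 pairs, of which 4 were highest with their own number), so the numbers were not taken to pair them. Under a replicate block, 0, 9 and 4 of the 10 genes were called at 3 days, at 7 days and for the change between the days.

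Differences that had not passed the test changed sign. At 3 days, library totals gave −0.0082 for *Hsp90b1*, −0.065 for *Herpud1* and −0.068 for *Creld2*, and the covariates 0.039 for *Pdia4*. With 1 library left out, *Herpud1* ranged from −0.0062 (without knockout replicate 5) to 0.121 and *Creld2* from −0.029 (without knockout replicate 2) to 0.106. Between the control mice, library totals gave −0.31 for *Creld2*, −0.34 for *Pdia4* and −0.32 for *Hyou1*, and the stricter count filter −0.0422, −0.078 and −0.0511. DESeq2 gave −0.0335 for *Pdia4* and −0.00535 for *Hyou1*, and its size factors in edgeR −0.0335 and −0.00362. Without the gland-rich libraries *Creld2* was −0.067 and *Hyou1* −0.13. With 1 library left out, these values ranged from −0.082 to 0.131 for *Creld2*, from −0.17 to 0.113 for *Pdia4*, from −0.097 to 0.122 for *Hyou1* and from −0.221 to 0.065 for *Edem1*. With 27 or more counts in every library, none of the 10 genes came near the floor of 3 counts.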
